A study of Mus musculus with 12 samples.

Results

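The 10 genes described here are *Mgp*, *Slc6a13*, *Slc6a20a*, *Dcn*, *Lum*, *Col1a1*, *Col1a2*, *Col3a1*, *Igf2* and *Igfbp2*, which are known from the fibroblasts of the meninges and from the extracellular matrix. Each was taken as the array transcript cluster whose gene symbol was exactly that of the gene. All 10 had 1 cluster of their own, among 21218 clusters with a single gene symbol and 35556 in the whole table. FIRE is an enhancer in the second intron of *Csf1r*, the gene of the receptor for macrophage colony-stimulating factor, and FIRE -/- mice carry a homozygous germline deletion of it made by genome editing. The study compared FIRE -/- with FIRE +/+ mice in hippocampus, a tissue rich in microglia, and in a piece of ileum that, by the study's description, contained a Peyer's patch. Each of the 4 groups had 3 arrays, from mice 6 weeks old that were perfused with saline. All groups were of the mixed C57BL/6J/CBA strain, no treatment is named, and the FIRE -/- line descends from 1 male founder. By the labels the FIRE -/- groups held 1 male and 2 females each and the FIRE +/+ groups 2 males and 1 female each.

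The meninges are sheets of connective tissue that cover the brain and follow its larger vessels and fissures inward. Their fibroblasts make fibrillar collagens, which form the tensile fibres of the matrix, and small leucine-rich proteoglycans such as decorin and lumican, which bind those fibres and set their width. Fibroblasts of the arachnoid and pia also carry transporters that move amino acids and neurotransmitters across the border of the cerebrospinal fluid, and they release insulin-like growth factor 2 and binding proteins for it. In the gut wall the same collagens are made by the fibroblasts of the lamina propria and submucosa.

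Values are log2 signals, and a log2 fold change is the mean of FIRE -/- minus the mean of FIRE +/+. Arrays of the same tissue correlated across all clusters with r from 0.986 to 0.993 in hippocampus and from 0.979 to 0.987 in ileum, and array medians lay between 4.29 and 4.46. *Csf1r* itself was at 3.58, 3.69 and 3.65 on the FIRE -/- hippocampus arrays A09, B09 and H07, and at 8.34, 8.31 and 8.15 on the FIRE +/+ arrays E07, F07 and G07. It fell in FIRE -/- hippocampus (log2 fold change -4.63, limma adjusted p = 8.77e-07), with 8 of 9 measured microglia genes called lower. Between ileum and hippocampus of FIRE +/+ mice, 8 of 8 genes of the ileal epithelium were called higher and 11 of 13 genes of hippocampal neurons lower, as the tissue labels say. Several arrays stood apart. Array B09 is labelled female, yet its *Xist* signal was 2.44 and its Y-linked *Eif2s3y* signal 6.18, against 7.15 and 2.16 on the FIRE -/- female array H07. On array F07 the mean level of 16 choroid plexus genes was 4.41, against 6.27 to 7.30 on the other hippocampus arrays. Array A09 had a mean of 6.34 over 10 genes of smooth muscle, where the others had 5.33 to 5.64. In ileum, 9 B cell genes averaged 7.65 on the FIRE -/- array F09 and 7.55 on the FIRE +/+ array D09, against 3.41 to 3.87 on the other 4, so the B cells expected of a Peyer's patch gave a high signal on 1 array of each genotype only.

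Sequence upstream of the transcription start was available from RefSeq for 6 of the 10 genes (*Slc6a13*, *Slc6a20a*, *Col1a2*, *Col3a1*, *Igf2* and *Igfbp2*, build GRCm38.p6). Those of the transporter pair whose genotypes did not overlap in hippocampus and of a pair of fibrillar collagens are shown, 250 bases each, so that genes that were measured together can be read side by side. They run 5′ to 3′ toward the gene, and capitals mark 3 motifs on either strand, namely the TATA box (TATAAA), the CCAAT box (CCAAT) and the GC box (GGGCGG).
*Slc6a13* (chr6:121300038-121300287, plus strand): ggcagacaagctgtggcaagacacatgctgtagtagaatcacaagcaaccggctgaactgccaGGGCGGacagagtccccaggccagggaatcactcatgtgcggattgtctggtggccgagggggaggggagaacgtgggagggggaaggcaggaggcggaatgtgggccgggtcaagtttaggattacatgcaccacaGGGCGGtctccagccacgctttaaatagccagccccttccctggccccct
*Slc6a20a* (chr9:123678833-123679082, minus strand): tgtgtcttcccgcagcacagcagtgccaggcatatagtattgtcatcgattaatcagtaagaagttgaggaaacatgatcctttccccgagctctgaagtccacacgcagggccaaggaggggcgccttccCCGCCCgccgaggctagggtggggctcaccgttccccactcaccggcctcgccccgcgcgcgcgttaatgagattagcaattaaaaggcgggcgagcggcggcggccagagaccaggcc
*Col1a2* (chr6:4505368-4505617, plus strand): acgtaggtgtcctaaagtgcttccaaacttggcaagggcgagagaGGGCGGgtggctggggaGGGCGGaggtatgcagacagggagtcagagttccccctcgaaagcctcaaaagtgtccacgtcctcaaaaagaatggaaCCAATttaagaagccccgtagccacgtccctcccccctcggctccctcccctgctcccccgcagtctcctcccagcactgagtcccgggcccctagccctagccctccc
*Col3a1* (chr1:45311288-45311537, plus strand): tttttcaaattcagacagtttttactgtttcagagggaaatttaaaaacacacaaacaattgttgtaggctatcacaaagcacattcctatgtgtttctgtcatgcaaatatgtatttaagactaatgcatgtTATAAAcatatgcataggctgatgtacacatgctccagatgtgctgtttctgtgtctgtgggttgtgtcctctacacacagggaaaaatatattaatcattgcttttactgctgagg
The GC box begins 187 and 50 bases before the start of *Slc6a13*, and on the opposite strand it begins 119 bases before that of *Slc6a20a*. *Col1a2* holds the GC box at 205 and 188 bases and the CCAAT box at 109 bases before its start. *Col3a1* held neither of these and had the TATA letters at 117 bases. Of 32851 windows of 250 bases, 32.7% held the GC box, 33.8% the CCAAT box and 12.4% the TATA letters on either strand, and no match here shares letters with another. The G and C content was 60.8% for *Slc6a13*, 61.2% for *Slc6a20a*, 62% for *Col1a2* and 35.2% for *Col3a1*.

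In hippocampus all 10 genes had a higher mean in FIRE -/- than in FIRE +/+ mice, where 52.5% of all clusters did. Their median log2 fold change was 0.36, against 0.01 over all clusters, and the 10 values ran from 0.05 for *Col3a1* to 0.61 for *Mgp*. None passed an adjusted p of 0.05 in either direction. Over all clusters 0% were called higher and 0.448% lower. At an unadjusted p under 0.05, 3 of the 10 lay higher (*Mgp*, *Slc6a13* and *Slc6a20a*), against 1.79% of all clusters. For these 3 genes every FIRE -/- array lay above every FIRE +/+ array, which held for 4.46% of all clusters, while the reverse held for none of the 10 and for 5.2% of all clusters. The genotypes overlapped for the other 7. The 10 genes were chosen with earlier results of these data known, so their counts beside these shares are no independent evidence. The median was 0.19 without the array F07. With the number in the array code (07 or 09) as a block it was 0.12. The hippocampus arrays numbered 09 are all FIRE -/-, so the blocked fit compares H07 alone with the FIRE +/+ arrays. Without B09, the array whose sex label its signals do not match, the median was 0.32 with all 10 above 0, and *Mgp* was at 0.57, *Slc6a13* at 0.59 and *Slc6a20a* at 0.42. In RNA from whole tissue, more cells of a type and more RNA per cell cannot be told apart.

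**Figure D1:**
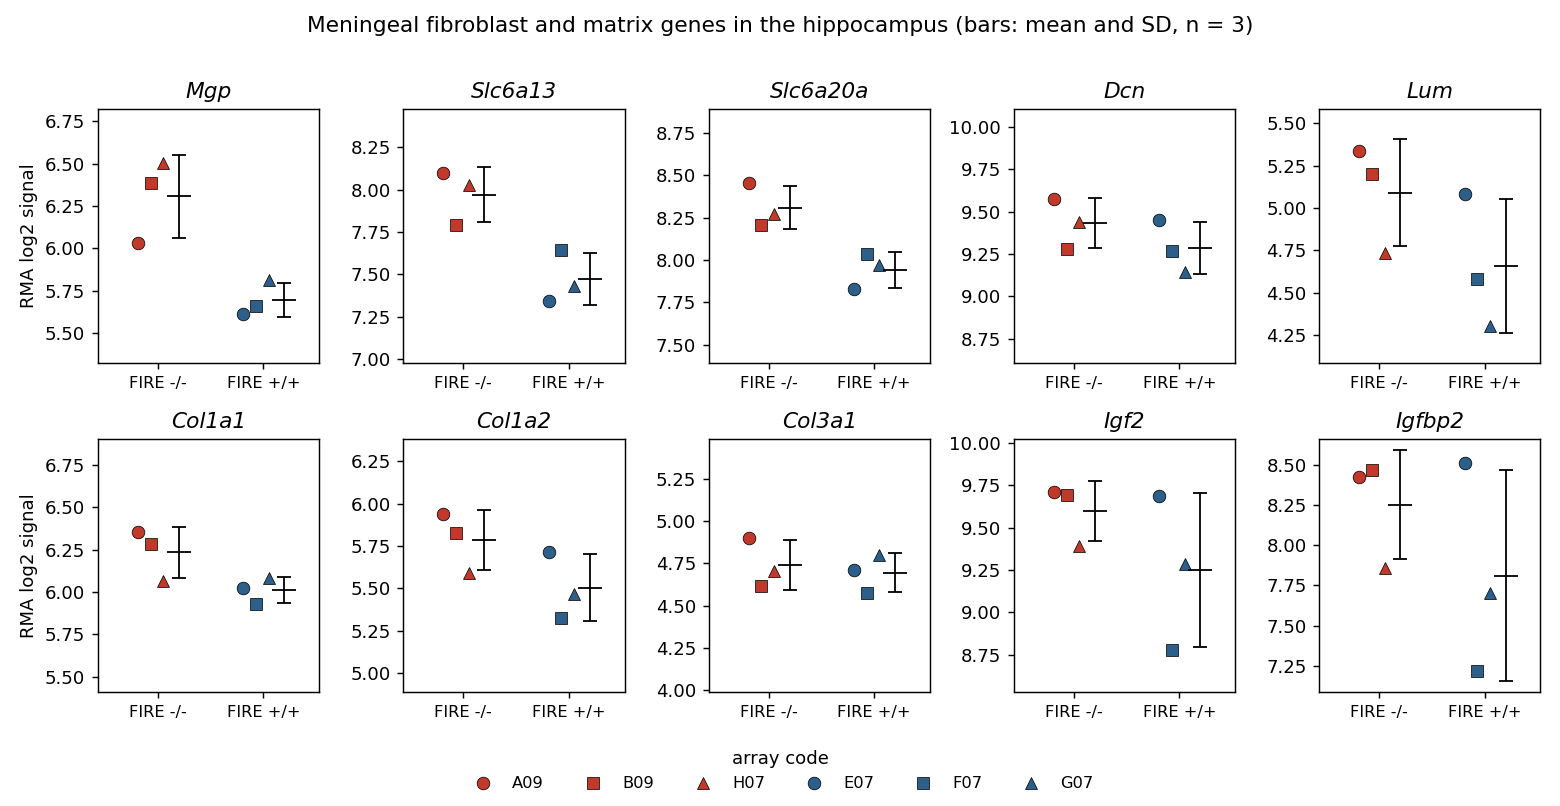
RMA log2 signal of each gene on the 6 hippocampus arrays, FIRE -/- in red and FIRE +/+ in blue, with 1 marker shape per array and bars for the mean and SD (n = 3). *Mgp*, *Slc6a13* and *Slc6a20a* show no overlap of the genotypes, and the FIRE +/+ arrays of *Igf2* and *Igfbp2* spread from the highest or near the highest array (E07) to the lowest (F07).

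*Mgp* encodes matrix Gla protein, a small secreted protein that keeps soft tissue and vessel walls from calcifying. It was at 6.03, 6.39 and 6.50 on the FIRE -/- arrays A09, B09 and H07, and at 5.62, 5.66 and 5.81 on the FIRE +/+ arrays E07, F07 and G07. The group means were 6.31 ± 0.25 in FIRE -/- and 5.70 ± 0.10 in FIRE +/+ hippocampus (SD, n = 3 each). The log2 fold change was 0.61 (SE 0.13), which is 1.53-fold with a 95% confidence interval of 1.23 to 1.90 (limma adjusted p = 0.269). It was the largest difference of the 10 genes, and among the FIRE -/- arrays its signal was highest on H07 and lowest on A09. Without A09 it was 0.75 (limma adjusted p = 0.0754), and without H07 it was 0.51 (limma adjusted p = 0.834). With B09, E07, F07 or G07 left out it ran from 0.57 to 0.67. Among 9 other measured genes of mineralisation and Gla proteins none was called, and their median log2 fold change was 0.08. The largest were *Bmp2*, a growth factor of bone, at 0.21, *Ggcx*, the carboxylase that makes Gla residues, at 0.20 and *Bmp4* at 0.15.

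*Slc6a13* encodes GAT2, a sodium-coupled transporter of GABA and taurine that the brain carries mainly in the leptomeninges and at blood vessels. It was at 8.10, 7.79 and 8.03 on the FIRE -/- arrays A09, B09 and H07, and at 7.34, 7.64 and 7.43 on the FIRE +/+ arrays E07, F07 and G07. The groups did not overlap, with B09 the lowest FIRE -/- array and F07 the highest FIRE +/+ array. The log2 fold change was 0.50 (SE 0.12), a 1.41-fold difference with a 95% confidence interval of 1.16 to 1.71 (limma adjusted p = 0.387). *Slc6a20a* encodes SIT1, which carries proline and other imino acids and is found in the meninges and in the brush border of the gut. It was at 8.46, 8.21 and 8.27 on the FIRE -/- arrays, and at 7.83, 8.04 and 7.97 on the FIRE +/+ arrays, in the same array order. Its log2 fold change was 0.37 (SE 0.10), or 1.29-fold with a 95% confidence interval of 1.09 to 1.52 (limma adjusted p = 0.581). Both transporters had E07 as the lowest array and A09 as the highest, and their values over the 6 arrays correlated with r = 0.971, a description over arrays that share the genotype groups. Of 17 other measured members of the SLC6 family 7 lay above 0, with a median of -0.03 and none called. Their largest values were -0.34 for *Slc6a19*, the neutral amino acid transporter of gut and kidney, 0.26 for the brain proline transporter *Slc6a7*, and -0.25 for the serotonin transporter *Slc6a4*. *Slc6a19* was dim in hippocampus, at 2.37 to 2.92, under the median of every array.

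*Dcn* and *Lum* encode decorin and lumican, and lie next to each other on chromosome 10 with 0 protein-coding genes between them. *Dcn* was at 9.57, 9.28 and 9.44 on the FIRE -/- arrays A09, B09 and H07, and at 9.45, 9.27 and 9.15 on the FIRE +/+ arrays E07, F07 and G07. These overlapped, with a log2 fold change of 0.14 (SE 0.12, limma adjusted p = 0.992), which was 0.07 without A09 or without G07 and 0.22 to 0.23 without B09 or without E07. *Lum* was at 5.34, 5.20 and 4.73 on the FIRE -/- arrays, and at 5.08, 4.58 and 4.30 on the FIRE +/+ arrays. The FIRE +/+ array E07 lay above the FIRE -/- array H07, and the log2 fold change was 0.44 (SE 0.22, 95% confidence interval -0.08 to 0.95), with 0.26 without G07 and 0.65 without E07. Of 15 other small leucine-rich proteoglycans, 13 lay above 0 with a median of 0.25 and none was called. The largest were *Ogn* (osteoglycin) at 0.72, *Fmod* (fibromodulin, which binds the same collagens as lumican) at 0.67 and *Epyc* at 0.40. *Epyc* was dim in hippocampus, at 2.12 to 2.82, under the median of every array, as were some others of this list. *Ogn* was at 6.60, 6.56 and 6.70 on the FIRE -/- arrays, and at 6.39, 5.84 and 5.48 on the FIRE +/+ arrays. Every FIRE -/- array was above every FIRE +/+ array for *Ogn*, whereas for *Fmod* the FIRE +/+ array F07, at 7.01, lay just above the FIRE -/- array B09, at 6.99.

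*Col1a1* and *Col1a2* encode the chains of type I collagen, and *Col3a1* that of type III collagen, the finer fibril often found with it. *Col1a1* was at 6.35, 6.28 and 6.07 on the FIRE -/- arrays A09, B09 and H07, and at 6.02, 5.93 and 6.08 on the FIRE +/+ arrays E07, F07 and G07. The groups met at H07 and G07, and the log2 fold change was 0.22 (SE 0.10, 95% confidence interval -0.02 to 0.46). *Col1a2* was at 5.94, 5.83 and 5.59 on the FIRE -/- arrays, and at 5.72, 5.33 and 5.47 on the FIRE +/+ arrays. Its log2 fold change was 0.28 (SE 0.13, 95% confidence interval -0.03 to 0.59), with H07 below E07. *Col3a1* was at 4.90, 4.61 and 4.71 on the FIRE -/- arrays, and at 4.71, 4.57 and 4.80 on the FIRE +/+ arrays. The genotypes of *Col3a1* overlapped over most of their range, with a log2 fold change of 0.05 (SE 0.11), which was -0.04 without A09 and -0.02 without F07. All 3 collagen genes were highest on A09 and lowest on F07. The other 36 measured collagens had a median of -0.03, with 15 above 0 and none called. The sign of this median depended on G07, without which it was 0.07 with 29 above 0. With any other single array left out it ran from -0.10 to -0.01. The largest values of these collagens were 0.69 for *Col8a1*, which choroid plexus also expresses, -0.27 for *Col19a1* and 0.23 for *Col12a1*. *Col8a1* is counted in this list and in that of the choroid plexus genes. As a list these collagens were dim, with a mean of 4.19 to 4.53 on the hippocampus arrays, near the array medians of 4.29 to 4.46. *Col19a1* was at 3.76 to 4.32.

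Enzymes and chaperones that process collagen lay near 0 as a list, with 17 of 24 above 0, a median of 0.09 and none called. The largest were *Lox*, the oxidase that cross-links collagen, at 0.51 (SE 0.13, limma adjusted p = 0.467), *Pcolce*, which enhances the cleavage of procollagen, at 0.48, and the prolyl hydroxylase subunit *P4ha3* at 0.46. Among 14 elastic fibre and microfibril genes the median was 0.03, led by *Fbln5*, which binds elastin, at 0.52 (SE 0.11, limma adjusted p = 0.214), and by *Fbln1* at 0.25 and *Ltbp2* at -0.25. Among 12 basement membrane genes the median was 0.06, with *Lama1*, a laminin chain of the pial basement membrane, at 0.40, *Lamc3* at 0.26 and *Nid1* at 0.19. None of these genes was called. *Lox*, at 2.67 to 3.60, and *Ltbp2*, at 3.26 to 4.01, were dim, under the median of every hippocampus array.

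*Igf2* encodes insulin-like growth factor 2 and *Igfbp2* a protein that binds it. Both are made in the meninges and also in the choroid plexus. *Igf2* was at 9.71, 9.69 and 9.39 on the FIRE -/- arrays A09, B09 and H07, and at 9.69, 8.78 and 9.29 on the FIRE +/+ arrays E07, F07 and G07. *Igfbp2* was at 8.43, 8.47 and 7.86 on the FIRE -/- arrays, and at 8.52, 7.22 and 7.70 on the FIRE +/+ arrays. In both genes F07 was by far the lowest array and E07 was level with the highest FIRE -/- arrays, so the genotypes overlapped. The log2 fold change of *Igf2* was 0.35 (SE 0.22), and it was 0.11 without F07 and 0.57 without E07. That of *Igfbp2* was 0.44 (SE 0.32), with 0.14 without F07 and 0.79 without E07 (limma adjusted p = 0.472). A second *Igf2* cluster, which the array shares with the antisense gene *Igf2os*, was left out because it carries both symbols and lay at 5.50 to 5.71 on the FIRE -/- and 5.40 to 5.96 on the FIRE +/+ arrays. The 18 other measured genes of the insulin-like growth factor system had a median of 0.03 with none called. Their largest values were -0.14 for the receptor gene *Igf1r*, -0.13 for *Igf2bp3* and -0.13 for *Pappa2*. *Igf2bp3*, at 2.64 to 2.89, and *Pappa2*, at 3.14 to 3.69, were dim, under the median of every hippocampus array.

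The spread of *Igf2* and *Igfbp2* over the arrays can be set beside that of the choroid plexus. The mean level of 16 measured choroid plexus genes was 7.03, 7.30 and 6.27 on the FIRE -/- arrays A09, B09 and H07, and 7.16, 4.41 and 6.56 on the FIRE +/+ arrays E07, F07 and G07. *Ttr*, the transthyretin gene that marks this tissue, was at 12.34, 12.48 and 12.12 on the FIRE -/- arrays, and at 12.42, 9.24 and 12.11 on the FIRE +/+ arrays. All 16 lay above 0 in FIRE -/- hippocampus, with a median of 0.69 and with *Aqp1* (1.21), *Tmem72* (1.20) and *Slc4a5* (1.15) at the top, but none was called and in none were the genotypes apart. Without F07 the median of the list was 0.01 and 8 of 16 lay above 0. Without that array the 10 genes had a median of 0.19 with 9 above 0, *Slc6a13* was at 0.58 and *Slc6a20a* at 0.41, and *Mgp* was at 0.59. The part of choroid plexus tissue in the differences of the 10 genes was not tested.

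**Figure D2:**
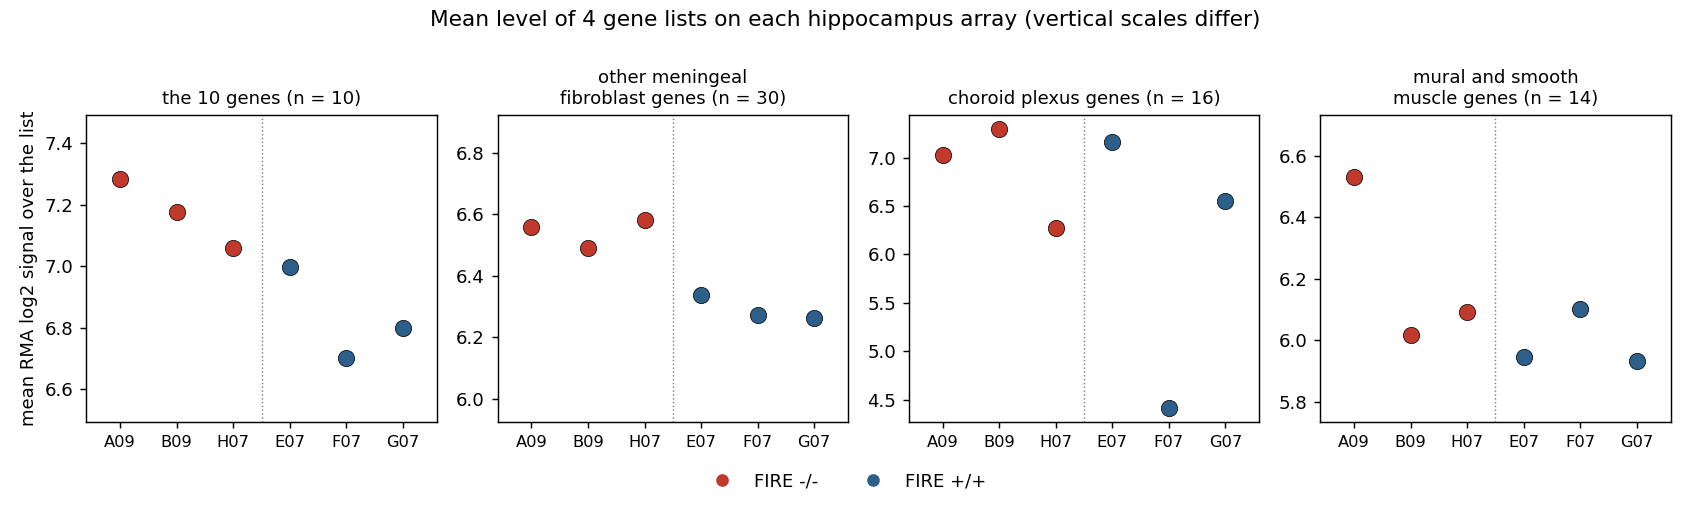
Mean RMA log2 signal of the 10 genes, 30 other meningeal fibroblast genes, 16 choroid plexus genes and 14 mural and smooth muscle genes on each hippocampus array, FIRE -/- (red) left and FIRE +/+ (blue) right of the dotted line, with vertical scales that differ. F07 is far below the rest for choroid plexus genes at 4.41, A09 is above the rest for mural and smooth muscle genes at 6.53, and the other meningeal fibroblast genes lie at 6.49 to 6.58 in FIRE -/- and 6.26 to 6.34 in FIRE +/+.

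Among the FIRE -/- arrays, A09 was the highest of all 6 for 8 of the 10 genes and above the mean of every one. Its mural and smooth muscle genes averaged 6.53, against 6.02 and 6.09 on the FIRE -/- arrays B09 and H07 and 5.93 to 6.10 on the FIRE +/+ arrays. Without A09 the median of the 10 genes was 0.29, with 9 above 0, and that of the 14 mural and smooth muscle genes was 0.06 in place of 0.25. With all arrays the largest mural and smooth muscle values were 0.67 for *Cnn1* (calponin), 0.47 for *Des* (desmin) and 0.45 for *Anpep*. The 14 endothelial genes had a median of 0.02, and none was called. The 10 gut smooth muscle genes had a median of 0.35, and 0.02 without A09. They share *Cnn1*, *Des* and other genes with the mural and smooth muscle list, so the 2 lists are not separate results. For 8 ependymal genes it was 0.19, and no gene of these lists was called. The array codes give a further split, since H07 carries the number 07 like all FIRE +/+ hippocampus arrays while A09 and B09 carry 09. The sources used here do not say what this number stands for. Within 07, H07 minus the mean of FIRE +/+ was 0.81 for *Mgp*, 0.55 for *Slc6a13* and 0.33 for *Slc6a20a*. For the other 7 genes it was 0.01 to 0.15, namely 0.15 for *Dcn*, 0.14 for *Igf2*, 0.09 for *Col1a2*, 0.08 for *Lum*, 0.06 for *Col1a1*, 0.05 for *Igfbp2* and 0.01 for *Col3a1*. The median of the 10 genes was 0.12 there, with all above 0, against 0.36 with all arrays. This is the same comparison as the fit with the array number as a block, and it rests on 1 FIRE -/- array. The part of this split in the differences was not tested.

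Most genes of a list chosen for meningeal fibroblasts lay to the same side as the 10. In RNA from whole tissue, the cells that gave the signal of these genes cannot be told. Of 30 measured genes out of 32, 25 were above 0, with a median of 0.24 against 0.01 over all clusters, and none was called. Their mean level of 6.26 to 6.58 lay above the median of every hippocampus array. Single genes of the list ran from 2.57 to 10.81, and some were dim, under the median of every hippocampus array. The list was chosen with earlier results of these data known, so its direction is no independent evidence. For 11 of the 30 every FIRE -/- array lay above every FIRE +/+ array, and for 1 the reverse held, against 4.46% and 5.2% of all clusters. That gene was *Pdgfra*, at 8.25, 8.14 and 8.21 on A09, B09 and H07. On the FIRE +/+ arrays E07, F07 and G07 it was at 8.36, 8.37 and 8.31. At an unadjusted p under 0.05, 10 lay higher, against 1.79% of all clusters, and 0 lower. The largest were *Slc13a4*, a sulfate transporter, at 0.72 (SE 0.24, limma adjusted p = 0.840), *Ogn* at 0.72 (SE 0.21, limma adjusted p = 0.622) and *Slc13a3*, a dicarboxylate transporter, at 0.53 (SE 0.13, limma adjusted p = 0.402). *Ogn* is counted in this list and in that of the small leucine-rich proteoglycans. *Slc13a3* was at 7.90, 8.15 and 8.36 on the FIRE -/- arrays A09, B09 and H07, and at 7.68, 7.48 and 7.64 on the FIRE +/+ arrays E07, F07 and G07. The median of this list was 0.24 without F07 and 0.25 without A09. Macrophages of the brain's borders, which sit among these fibroblasts, had 12 measured genes with a median of 0.07 and none called. For 2 of the 12 every FIRE -/- array lay below every FIRE +/+ array and for 0 above, against 5.2% and 4.46% of all clusters. The list was dim, with a mean of 4.08 to 4.29, under the median of each hippocampus array. *Stab1* was at -0.42, the mannose receptor gene *Mrc1* at 0.39 and *Maf* at -0.33.

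**Figure D3:**
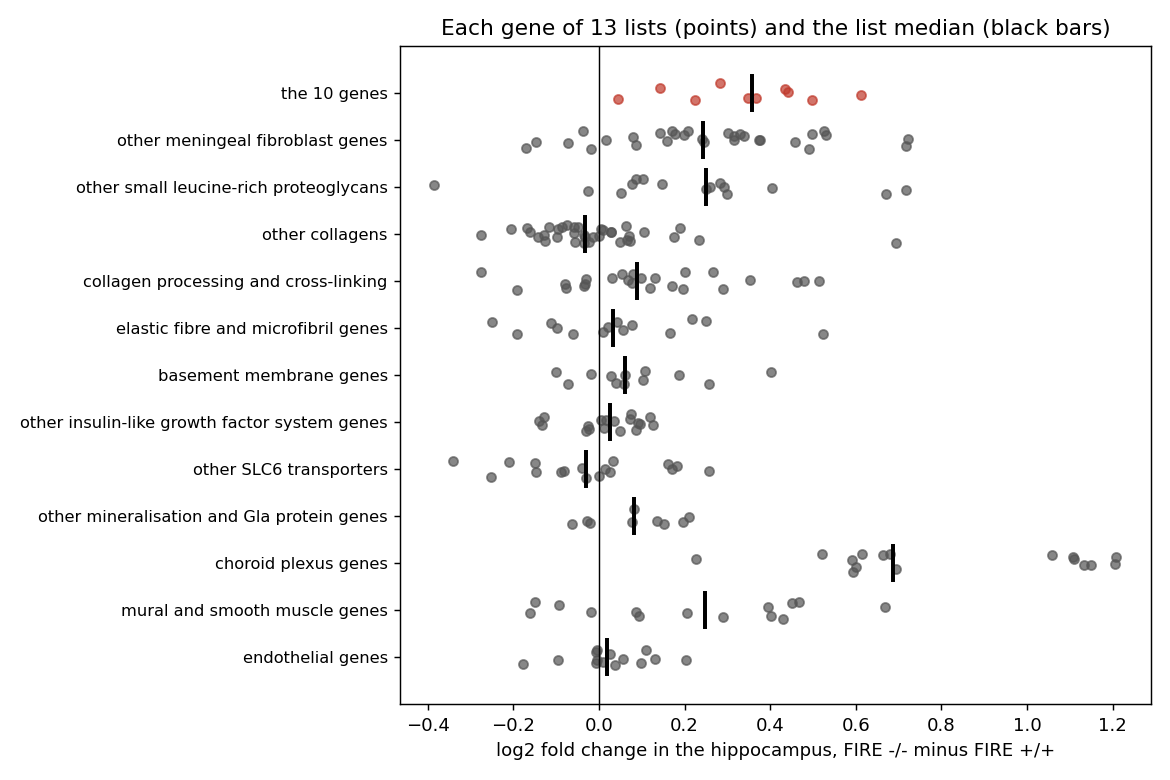
Log2 fold change (FIRE -/- minus FIRE +/+) of each gene in 13 lists in hippocampus, with a black bar at the median of each list. The 10 genes have a median of 0.36, other meningeal fibroblast genes 0.24, other small leucine-rich proteoglycans 0.25 and choroid plexus genes 0.69. Other collagens have -0.03, which was 0.07 without G07, and endothelial genes have 0.02.

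The clusters whose profile over the 6 hippocampus arrays was most like the mean of the 10 genes were sought among 1648 clusters of above-median signal and a range of at least 0.5. Correlations over so few arrays, which share the genotype groups, are given as a description. The 8 highest were the small nucleolar RNA *Snord49a* (r = 0.999), *Bmp6* (0.988), *Slc13a4* (0.944), *Cavin1* (0.93), *Snord49b* (0.927), *Akap17b* (0.915), *Snord82* (0.914) and *Cped1* (0.911). *Slc13a4* is the 1 gene of the 8 that the list of meningeal fibroblast genes also holds. None was called between genotypes, with log2 fold changes from 0.21 for *Snord49b* to 0.72 for *Slc13a4*. Among the 10 genes themselves the closest pair was *Igf2* with *Igfbp2* (r = 0.978), followed by the transporters (0.971), *Col1a2* with *Igfbp2* (0.927), *Col1a2* with *Igf2* (0.924), *Lum* with *Col1a2* (0.905) and *Col1a1* with *Col1a2* (0.875). *Mgp* and *Col3a1* had r = -0.0228.

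In ileum 4 of the 10 genes had a higher mean in FIRE -/- mice, where 47.1% of all clusters did, and the median log2 fold change was -0.03 (-0.01 over all clusters). None was called, and 0% of all clusters were called in either direction. The genotypes overlapped for all 10 genes. Over all clusters every FIRE -/- array lay above every FIRE +/+ array in 3.52% and below in 4.52%. *Mgp* was at 6.93, 6.63 and 7.06 on the FIRE -/- arrays F09, G09 and H09, and at 6.46, 6.55 and 7.23 on the FIRE +/+ arrays C09, D09 and E09. *Dcn* was at 9.90, 10.11 and 10.30 on the FIRE -/- arrays, and at 9.86, 10.47 and 10.56 on the FIRE +/+ arrays. *Lum* was at 7.18, 7.17 and 7.17 on the FIRE -/- arrays, and at 6.99, 7.39 and 7.69 on the FIRE +/+ arrays. The FIRE -/- values of *Lum* were nearly the same and lay inside the range of the FIRE +/+ values, with a log2 fold change of -0.18 (SE 0.18). *Col1a1* was at 8.72, 9.13 and 9.02 on the FIRE -/- arrays, and at 8.68, 8.90 and 9.11 on the FIRE +/+ arrays. *Col1a2* was at 7.73, 8.21 and 8.04 on the FIRE -/- arrays, and at 7.81, 8.10 and 8.22 on the FIRE +/+ arrays. *Col3a1* was at 7.69, 8.10 and 8.30 on the FIRE -/- arrays, and at 7.89, 7.99 and 8.23 on the FIRE +/+ arrays. In all 3 the lowest arrays were F09 and C09, 1 of each genotype, with log2 fold changes of 0.06 (SE 0.16), -0.05 (SE 0.17) and -0.01 (SE 0.18). Without D09 and F09 the 3 values were 0.18, 0.11 and 0.14.

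*Igf2* had the largest difference of the 10 in ileum. It was at 7.75, 8.11 and 7.02 on the FIRE -/- arrays F09, G09 and H09, and at 7.22, 6.44 and 6.39 on the FIRE +/+ arrays C09, D09 and E09. The FIRE -/- array H09 lay below the FIRE +/+ array C09. The log2 fold change was 0.94 (SE 0.33, 95% confidence interval 0.17 to 1.72), and the limma adjusted p was 0.999. At an unadjusted p under 0.05 it was the 1 gene of the 10 in ileum, where 3.39% of all clusters were. The left-out cluster shared with *Igf2os* was at 6.19, 6.49 and 5.98 on the FIRE -/- arrays F09, G09 and H09. On the FIRE +/+ arrays C09, D09 and E09 it was at 6.13, 5.53 and 5.16, again with H09 below C09. *Igfbp2* was at 4.05, 4.16 and 4.24 on the FIRE -/- arrays, and at 3.56, 4.42 and 4.41 on the FIRE +/+ arrays, with a log2 fold change of 0.02 (SE 0.24). *Slc6a13* was at 3.17, 3.52 and 3.81 on the FIRE -/- arrays, and at 3.71, 3.57 and 4.34 on the FIRE +/+ arrays. *Slc6a13* and *Igfbp2* were thus dim in ileum, under the median of the arrays. *Slc6a20a* was at 10.87, 10.79 and 11.00 on the FIRE -/- arrays, and at 11.03, 11.02 and 10.72 on the FIRE +/+ arrays. This transporter was bright on all 6 ileum arrays, with a log2 fold change of -0.04 (SE 0.13).

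**Figure D4:**
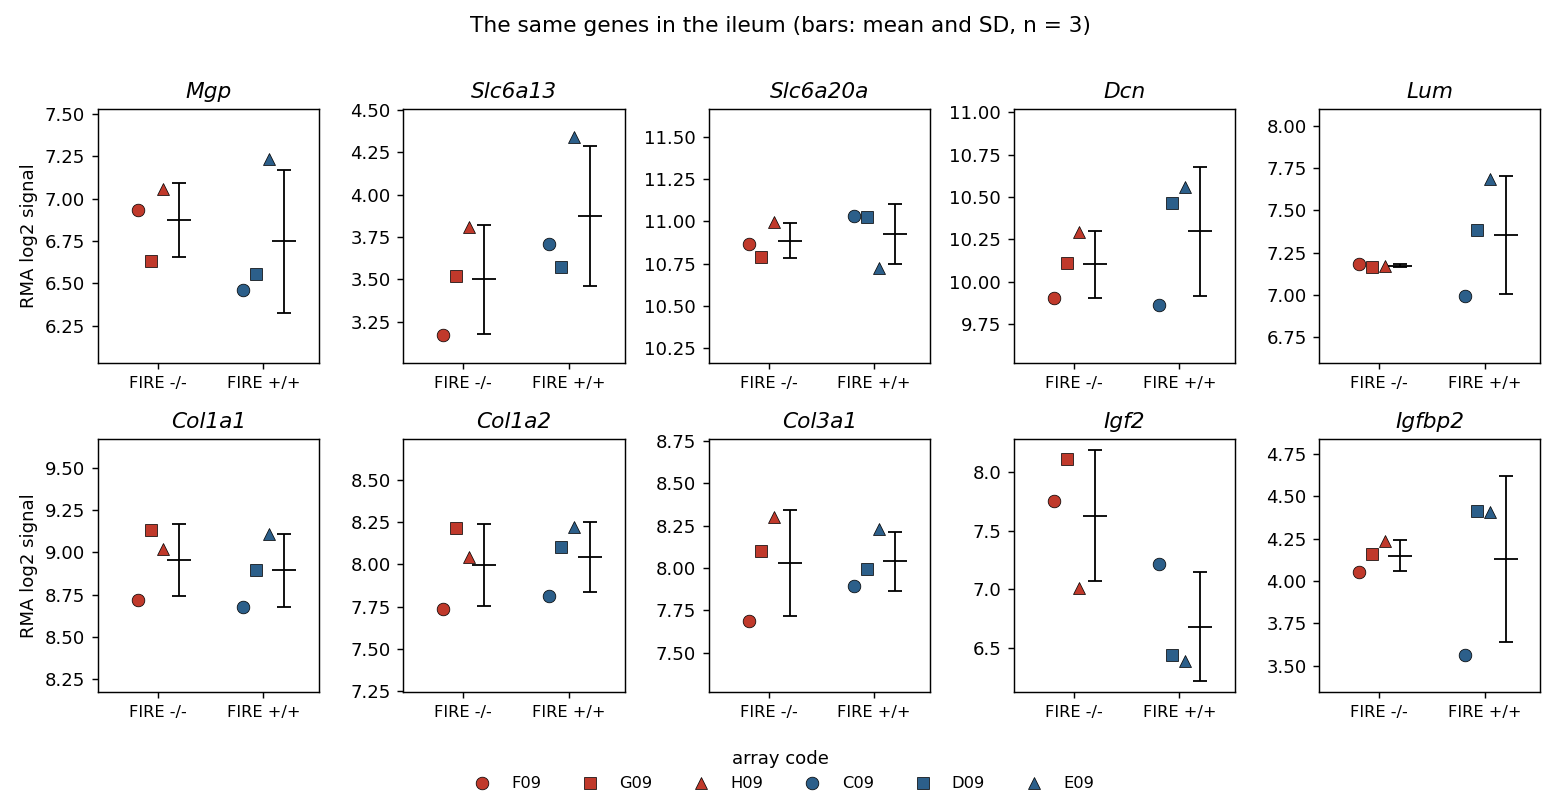
RMA log2 signal of each gene on the 6 ileum arrays, FIRE -/- in red and FIRE +/+ in blue, with 1 marker shape per array and bars for the mean and SD (n = 3). The genotypes overlap for all 10 genes, and the largest difference is that of *Igf2*, with a log2 fold change of 0.94.

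The genotype effects of both tissues were compared by their difference, hippocampus minus ileum. For 9 of the 10 genes this difference was above 0, with a median of 0.37 against 0.02 over all clusters, and none was called. Over all clusters 0% were called above 0 and 0.0895% below. At an unadjusted p under 0.05, 2 of the 10 lay apart, *Slc6a13* with a difference of 0.87 (SE 0.29, 95% confidence interval 0.23 to 1.51) and *Slc6a20a* with 0.41 (SE 0.16, 95% confidence interval 0.05 to 0.77), against 4.21% of all clusters. The limma adjusted p of both was near 1. The value of *Slc6a13* takes in an ileum log2 fold change of -0.37 (SE 0.25), measured on dim signals of 3.17 to 4.34. Since the 10 genes were chosen with earlier results known, these counts are no independent evidence either. For *Mgp* the difference was 0.49 (SE 0.28) and for *Lum* 0.62 (SE 0.31). *Igf2* was the exception in sign, at -0.59 (SE 0.43). So the larger hippocampal values of the 10 genes are not shown to differ from those of the ileum. The array number is not balanced in this difference. All ileum arrays carry 09 and all FIRE +/+ hippocampus arrays 07, while the FIRE -/- hippocampus arrays carry 09 or 07. No fit of this difference with the number as a block was run, and the part of the number was not tested.

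**Figure D5:**
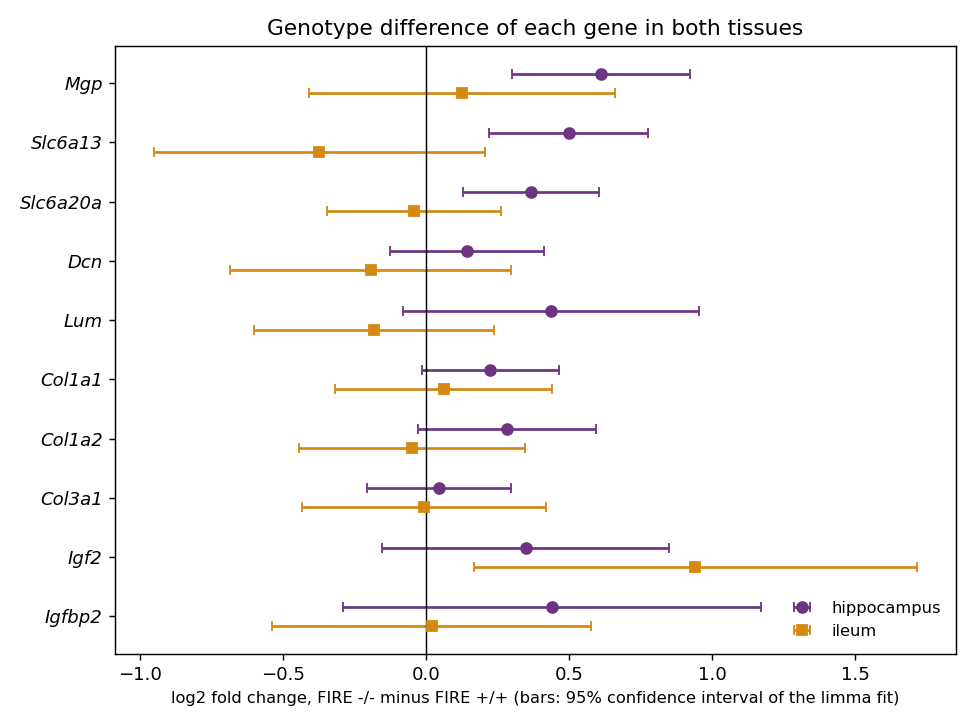
Log2 fold change (FIRE -/- minus FIRE +/+) of each gene in hippocampus (purple circles) and ileum (orange squares), with the 95% confidence interval of the limma fit. In hippocampus the intervals of *Mgp*, *Slc6a13* and *Slc6a20a* lie above 0, and in ileum that of *Igf2* does, but no gene passed after adjustment over all clusters.

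The tissues themselves differed in all 10 genes. Between ileum and hippocampus of FIRE +/+ mice 7 genes were higher and 3 lower in ileum, where 31.1% of all clusters were called higher and 28.7% lower. *Col3a1* averaged 8.04 ± 0.17 in ileum and 4.70 ± 0.11 in hippocampus (SD, n = 3 each), a log2 difference of 3.34 (SE 0.15, limma adjusted p = 1.48e-09). Of the other matrix genes *Col1a1* had 2.88 (SE 0.14), *Lum* with 2.70 (SE 0.22) and *Col1a2* with 2.54 (SE 0.16). The smallest of the higher genes were *Mgp* at 1.05 (SE 0.20) and *Dcn* at 1.01 (SE 0.18). So every gene of the matrix among the 10 was higher in the gut wall. *Slc6a20a* averaged 10.93 ± 0.18 in ileum and 7.94 ± 0.11 in hippocampus, a difference of 2.98 (SE 0.12). The genes lower in ileum were *Igfbp2* at -3.68 (SE 0.31), *Slc6a13* at -3.60 (SE 0.21) and *Igf2* at -2.57 (SE 0.31). *Slc6a13* averaged 3.87 ± 0.41 in ileum and 7.47 ± 0.15 in hippocampus. Of the 30 other meningeal fibroblast genes 5 were higher and 16 lower in ileum, with a median of -0.84. Of the 36 other collagens 13 were higher and 4 lower, with a median of 0.14, against 0.03 over all clusters. Tissue and array number cannot be told apart in this comparison, since all ileum arrays carry 09 and all FIRE +/+ hippocampus arrays 07.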

How the data were processed

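Total RNA from hippocampus and from ileum, described as holding a Peyer's patch, was hybridised to Affymetrix Mouse Gene ST arrays. The authors deposited log2 values made with RMA (background correction, quantile normalisation and 1 summary value per transcript cluster). The sources used here give neither its version nor whether both tissues were normalised together. The deposited log2 values were used as they are, with symbols of the array's annotation table. Clusters with several symbols (1881) or none (12457) were left out.

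Each tissue was fitted with limma 3.58.1 in R 4.3.3, without a covariate, filter or fold limit, and p-values were adjusted by Benjamini-Hochberg over 21218 clusters at a threshold of 0.05. The comparison between tissues and the difference of genotype effects used all 12 arrays. No source says whether 1 mouse gave both tissues, so no mouse term was used. Labels do not say more of the arrays of a group than that they are separate samples, and p-values measure the spread between these.

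The 10 genes and the 23 lists (336 symbols, 30 without a cluster of their own) were chosen with earlier results of these data known. Named genes are the 10, *Csf1r* and the 8 clusters most like the mean of the 10. For the lists of matrix, meningeal, mural, choroid plexus and border macrophage genes and of the families of the 10, the 3 with the largest change in hippocampus are named. Genes of the other lists are not named. *Ttr*, *Pdgfra*, *Xist* and *Eif2s3y* were named after their values were seen. Lists are described by counts and medians.

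On simulated data with known changes in 100 clusters per size among 21218, 21% of log2 changes of 0.5 and 98% of changes of 1 were recovered in hippocampus. In ileum 2% and 67% were recovered, for the difference of genotype effects 0% and 54%, and between tissues 15% and 91%. The changed clusters were drawn at random, with noise independent between arrays. The median SE over all clusters in hippocampus was 0.11, so these shares do not describe *Igfbp2* (SE 0.32), *Lum* or *Igf2* (SE 0.22 each). For arrays, their number limits the precision. The alternatives were a test without moderation (the methods' analysis of variance), another shrinkage, a second quantile normalisation, all clusters, a filter on dim clusters, labelled sex, array weights, a shared fit, the array number as a block, leaving out each array, and leaving out both ileum arrays rich in B cell genes.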

Additional observations from a re-analysis of the deposited data

How the results depend on the processing

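None of the 10 genes was called between genotypes under any alternative run, in hippocampus, in ileum or for the difference of genotype effects, and all 10 were called between tissues under every one. Over all clusters, hippocampus had 0 called higher with all arrays. It had 1 without moderation, with trend and robust shrinkage, with all clusters or with sex as a covariate, 3 with the array number as a block, and 0 to 4 when 1 array was left out. Against 95 called lower there were 24 without moderation, 41 with both tissues in 1 fit, 62 with the array number as a block and 71 to 89 when 1 array was left out. The difference of genotype effects had 19 called clusters, with 8 without moderation, 34 with array weights, 65 without D09 and F09, and 12 to 41 when 1 array was left out. The cause was not tested.

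In hippocampus the directions were kept except for *Col3a1*, which ran from -0.035 (without A09) to 0.11 when 1 array was left out. In ileum, where most values are near 0, signs turned more often. With sex as a covariate *Mgp* was at -0.056 and *Igfbp2* at -0.048. With array weights *Mgp* was at -0.020, *Igfbp2* at -0.042 and *Slc6a20a* at 0.020. A second quantile normalisation gave *Col3a1* 0.0072. Without D09 and F09 *Mgp* was at -0.0015, *Slc6a20a* at 0.015, *Col1a2* at 0.11 and *Col3a1* at 0.14. When 1 array was left out, *Mgp* ran from -0.019 to 0.37, *Slc6a20a* from -0.14 to 0.012, *Col1a1* from -0.047 to 0.18, *Col1a2* from -0.16 to 0.083, *Col3a1* from -0.14 to 0.16 and *Igfbp2* from -0.26 to 0.16. For the difference of genotype effects *Col3a1* was at -0.094 without D09 and F09, and ran from -0.12 to 0.19 when 1 array was left out. The filter on dim clusters leaves *Slc6a13* and *Igfbp2* out of the ileum fit. Since each gene has 1 cluster of its own, averaging all its clusters changes no value.

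The adjusted p of *Mgp* in hippocampus was lowest without A09, at 0.0754, that of *Slc6a13* was at least 0.150 and that of *Slc6a20a* at least 0.305. In simulated hippocampus data 21% of log2 changes of 0.5 and 98% of changes of 1 were recovered in clusters drawn at random. These shares do not describe genes with a larger SE, and sizes between these were not simulated. No paired analysis was possible because the labels carry no shared replicate numbers.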
